A study of Schmidtea mediterranea with 16 samples.

Results

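Knockdown of atm in unirradiated planarian X1 cells was compared with the control knockdown over 8 RNA-seq libraries of the 16 in the series, taken by their labels: 4 of unirradiated atm(RNAi) and 4 of unirradiated unc-22(RNAi). The animals were Schmidtea mediterranea, and both groups carried an RNA interference treatment. X1 cells are a flow cytometry gate of dissociated cells with a high DNA content, so each library is a mixture of the cells in that gate. The other 8 libraries come from animals given 2000 rads and collected 1 day later, 4 of atm(RNAi) and 4 of unc-22(RNAi). They are used here to measure genes chosen in unirradiated cells, to choose lists of genes, and in fits of all 16 libraries. The number of animals behind a library and the way the RNAi was delivered are not given in the sources used here. Nothing in the labels says that the 4 libraries of a group came from separate cultures of animals, so p values measure the spread between these libraries, which may be technical.

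Planarians keep a large population of dividing stem cells, the neoblasts, which renew every tissue and are the main cells of the X1 gate. ATM is a protein kinase that is recruited to double-strand breaks in DNA and phosphorylates proteins that halt the cell cycle, start repair or lead to cell death. In cells without induced breaks most ATM is held inactive, as far as is known from human cells. unc-22 is a muscle gene of the nematode Caenorhabditis elegans and serves as a control target in planarian RNAi. The comparison therefore asks what loss of the kinase does to neoblast transcripts before any radiation is given.

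Genes are given by the identifiers of the deposited files, which carry the name of the dd_Smed_v6 transcriptome and are not paired with gene names. The level of the atm transcript, the markers of neoblasts and of other cell types, and gene sequences were therefore not analysed here, and the groups and the cell type rest on the labels. Reads assigned to genes numbered 17.8 M to 26.5 M per library (M, 1000000 reads). Replicates 1 and 2 of both groups were read in lane 8 and replicates 3 and 4 in lane 7, as the deposited file names give it, so lane is balanced over the groups. Of 6 library measures none passed after adjustment, but the smallest p that the exact permutation test of 4 against 4 allows is 0.0286, so a single measure could not have passed on its own. The share of unmapped reads was 30.6% ± 5.43 in atm(RNAi) and 38.2% ± 6.38 in unc-22(RNAi) (SD, n = 4 each; exact two-sided permutation p = 0.143, adjusted 0.386).

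The libraries did not sort by RNAi target. The root mean square distance in log2 CPM (CPM, counts per 1000000 after scaling of the library size) averaged 0.757 over the 6 pairs within atm(RNAi) and 0.951 over the 6 pairs within unc-22(RNAi). Over the 16 pairs that join the groups it averaged 0.861, between the within-group values. The library that stood farthest from the rest was unc-22(RNAi) replicate 3, with a mean distance of 1.04 to the other 7. Next came unc-22(RNAi) replicate 2 with 0.929 and atm(RNAi) replicate 2 with 0.908, and the lowest was atm(RNAi) replicate 3 with 0.74. Per gene, the SD of the 4 replicates had a median of 0.249 in atm(RNAi) and 0.325 in unc-22(RNAi), in log2 CPM, and 65.8% of tested genes varied more in unc-22(RNAi). Without its replicate 3 the unc-22(RNAi) value became 0.253, beside 0.249 in atm(RNAi) with all 4 libraries. This left out the farthest library and none of atm(RNAi), so these values do not compare like with like.

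**Figure D1:**
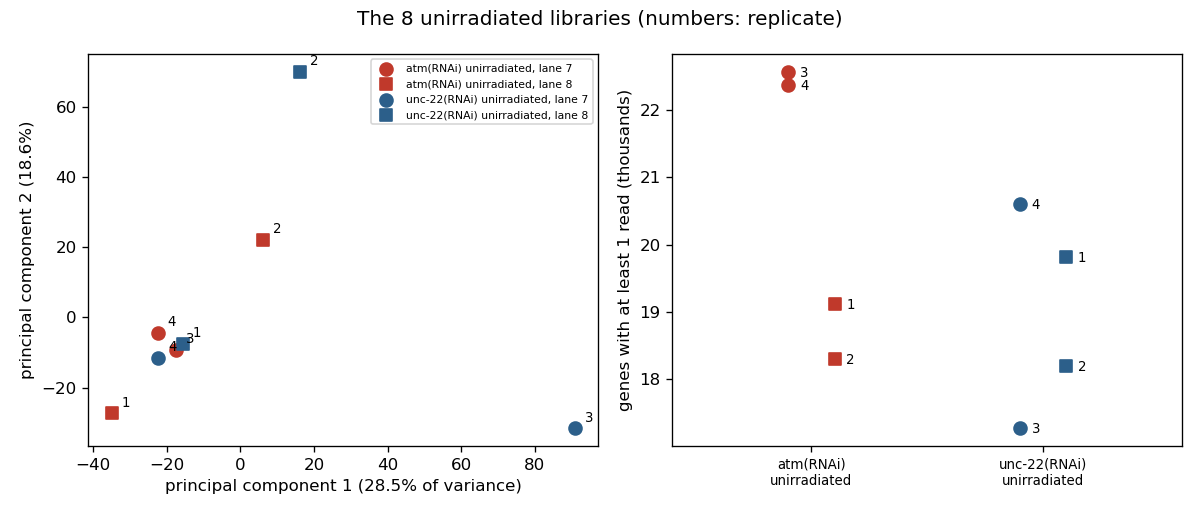
Left, position of the 8 unirradiated libraries on principal components 1 and 2 of log2 CPM (28.5% and 18.6% of the variance), with colour for RNAi target, symbol for lane and the replicate number beside each point. unc-22(RNAi) replicate 3 lies alone at 90.9 on component 1, and atm(RNAi) replicate 1 has the lowest value on component 1, at -35; right, genes with at least 1 read per library, highest in atm(RNAi) replicates 3 and 4.

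Of 14969 tested genes, 1 passed the threshold of 0.05 on the adjusted p, a background of 0.00668% (edgeR quasi-likelihood test on the 8 libraries, adjusted by Benjamini and Hochberg's method over all tested genes). That gene, dd_Smed_v6_14586_0_1, fell to 41.8% of its control level. It had 40.3, 38.1, 49 and 57.1 CPM in atm(RNAi) replicates 1 to 4, against 125, 108, 82.2 and 125 CPM in unc-22(RNAi) replicates 1 to 4. The groups did not overlap: the highest atm(RNAi) library stayed below the lowest unc-22(RNAi) library, which was again replicate 3. The means were 46.2 ± 8.70 CPM in atm(RNAi) and 110 ± 20.3 CPM in unc-22(RNAi) (SD, n = 4 each). The log2 fold change was -1.26 ± 0.15 (SE; 95% interval -1.59 to -0.92) and the quasi-likelihood test of edgeR gave an adjusted p of 0.035 (unadjusted 2.34e-06). Between 752 and 1282 reads per library stood behind it in atm(RNAi) and between 1400 and 3195 in unc-22(RNAi), so counting error was small beside the spread between libraries.

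Within lanes, with 2 libraries a group, the log2 fold change of dd_Smed_v6_14586_0_1 was -0.96 in lane 7 and -1.57 in lane 8. It kept its sign in all 21 other settings and its adjusted p was under 0.05 in 10 of them, from 1.16e-12 in DESeq2 to 0.822 in lane 7 alone. With lane as a covariate the adjusted p was 0.0834, and with 1 library left out it ran from 0.00259 to 0.319 (edgeR quasi-likelihood); the call was lost in 6 of those 8 fits, all except those without unc-22(RNAi) replicate 3 or atm(RNAi) replicate 4.

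The reads of dd_Smed_v6_14586_0_1 come from 3 transcripts of the assembly, and the main one carried the difference. Transcript dd_Smed_v6_14586_0_1 had 606, 563, 988 and 767 reads in the atm(RNAi) libraries, against 2137, 1867, 1226 and 2557 reads in the unc-22(RNAi) libraries. Scaled for depth, this was 34 ± 5.36 CPM in atm(RNAi) and 90.2 ± 12.6 CPM in unc-22(RNAi) (SD, n = 4 each), a ratio of means of 37.7% with no overlap. The second transcript, dd_Smed_v6_14586_0_2, was at 11 ± 3.13 CPM in atm(RNAi) and 18.2 ± 7.26 CPM in unc-22(RNAi) (SD, n = 4 each), and its libraries overlapped. The main transcript made up 68.9% to 77.1% of the gene's reads in atm(RNAi) and 77.3% to 87.6% in unc-22(RNAi), so the ranges of its share lay side by side without overlap. The third transcript held at most 3.77% of the gene's reads in any atm(RNAi) library and at most 2.17% in any unc-22(RNAi) library. Reads that fit several transcripts stay outside these counts, so the split between transcripts is less certain than the sum. On the opposite strand the gene had 74 reads in the atm(RNAi) libraries together and 145 in the unc-22(RNAi) libraries together. That was a log2 fold change of -0.91 (adjusted p = 0.699, edgeR quasi-likelihood). The same-strand reads were 3955 and 9562 in the same order, and whether the opposite-strand reads are independent of them was not tested.

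The gene next in order of p among those lower in atm(RNAi) without overlap was dd_Smed_v6_7014_0_1. Its levels were 12.7, 13.7, 16.6 and 14 CPM in the atm(RNAi) libraries, against 18.9, 19.3, 20.8 and 22.2 CPM in the unc-22(RNAi) libraries. The means of 14.3 ± 1.65 CPM in atm(RNAi) and 20.3 ± 1.49 CPM in unc-22(RNAi) (SD, n = 4 each) gave a log2 fold change of -0.51 ± 0.13 (SE). The unadjusted p was 0.00188 and the adjusted p 0.938 (edgeR quasi-likelihood), so this difference did not pass. Its log2 fold change was -0.49 within lane 7 and -0.53 within lane 8.

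Among genes higher in atm(RNAi), the smallest p belonged to dd_Smed_v6_6060_0_1. It had 53.7, 54.3, 51.1 and 51.8 CPM in the atm(RNAi) libraries, against 42.8, 32.1, 36.6 and 41.3 CPM in the unc-22(RNAi) libraries. The atm(RNAi) libraries stood close together above all of the others: 52.7 ± 1.51 CPM in atm(RNAi) and 38.2 ± 4.83 CPM in unc-22(RNAi) (SD, n = 4 each). The log2 fold change was 0.46 ± 0.10 (SE), and the quasi-likelihood test of edgeR gave an adjusted p of 0.938 (unadjusted 0.000566). The second, dd_Smed_v6_12331_0_1, was a gene of very few reads, 21, 23, 18 and 14 in the atm(RNAi) libraries, against 2, 1, 3 and 0 in the unc-22(RNAi) libraries. Its log2 fold change of 3.50 ± 0.89 (SE; 95% interval 1.57 to 5.44) rests on 6 control reads, and its adjusted p was 0.938 (edgeR quasi-likelihood). Neither gene passed the test.

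**Figure D2:**
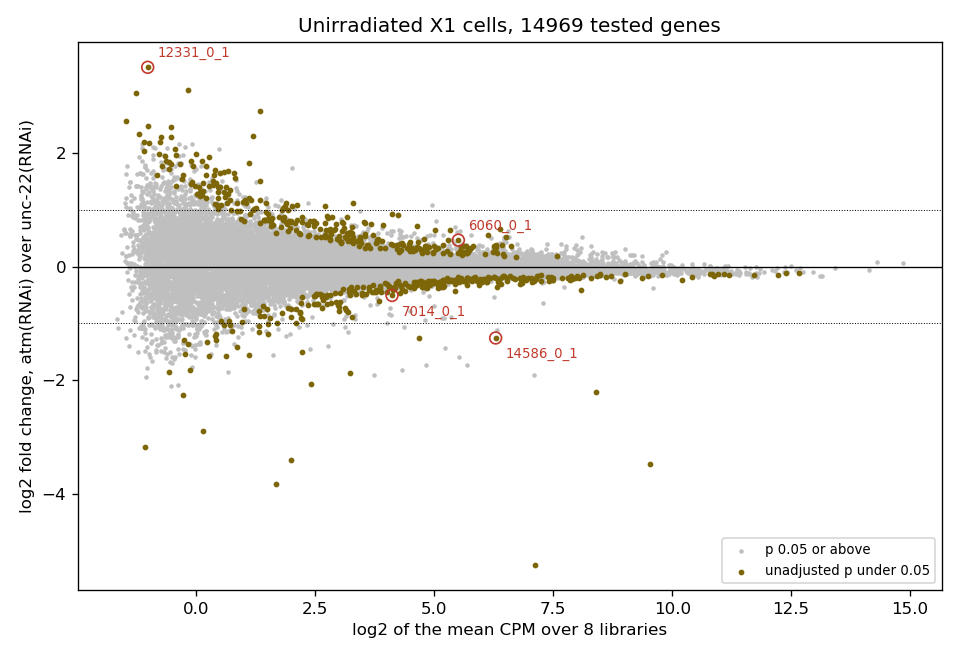
Each point is 1 of 14969 tested genes, placed by the log2 of its mean CPM over the 8 libraries (x axis) and its log2 fold change of atm(RNAi) over unc-22(RNAi) in unirradiated cells (y axis); dotted lines mark 2-fold, brown points have an unadjusted p under 0.05, and the 4 named genes are ringed. The cloud narrows with level, and dd_Smed_v6_14586_0_1 at -1.26 lies beyond the lower 2-fold line, where few genes of its level lie.

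Over all tested genes, the differences were small and went both ways. The median log2 fold change was -0.001, and the median size without regard to sign was 0.157. An unadjusted p under 0.05 was reached by 583 genes, or 3.89% of those tested, 293 higher and 290 lower in atm(RNAi). The split depended on the fit: it was 320 higher and 224 lower with upper quartile factors, 827 and 402 with no low-count filter, and 210 and 68 with all 16 libraries in 1 fit. The count of 583 was 914 without unc-22(RNAi) replicate 4, 337 without atm(RNAi) replicate 1 and 331 without atm(RNAi) replicate 4. DESeq2 gave 665 such genes and limma-voom 636, and each called 1 gene after adjustment. Libraries of the groups did not overlap for 481 genes, or 3.21%, 250 of them higher and 231 lower in atm(RNAi). A fold change of 2 or more was seen for 615 genes, or 4.11%, 398 of them higher and 217 lower in atm(RNAi). Of the 615 genes 583 had a mean under 4 CPM, where few reads stand behind a value. The 615 became 1018 without unc-22(RNAi) replicate 1, 1138 without its replicate 4 and 930 without atm(RNAi) replicate 3.

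How large a change could have gone unseen depended on the level of the gene. The 95% interval of the log2 fold change lay wholly between -1 and 1, that is within 2-fold in either direction, for 9281 genes or 62%. Below 1 CPM the interval reached a median of 1.8 to either side and none of 2297 genes met this mark. From 1 to 4 CPM the median reach was 0.977, and 21.4% of 3652 genes met it. From 4 to 16 CPM it was 0.483, and 86.9% of 3246 genes did. At 16 CPM and above the median reach was 0.232, and 5680 of 5774 genes, or 98.4%, had an interval within 2-fold. For well expressed genes a change of 2-fold or more was therefore outside the interval in nearly all cases, while for genes under 1 CPM these libraries could not tell.

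**Figure D3:**
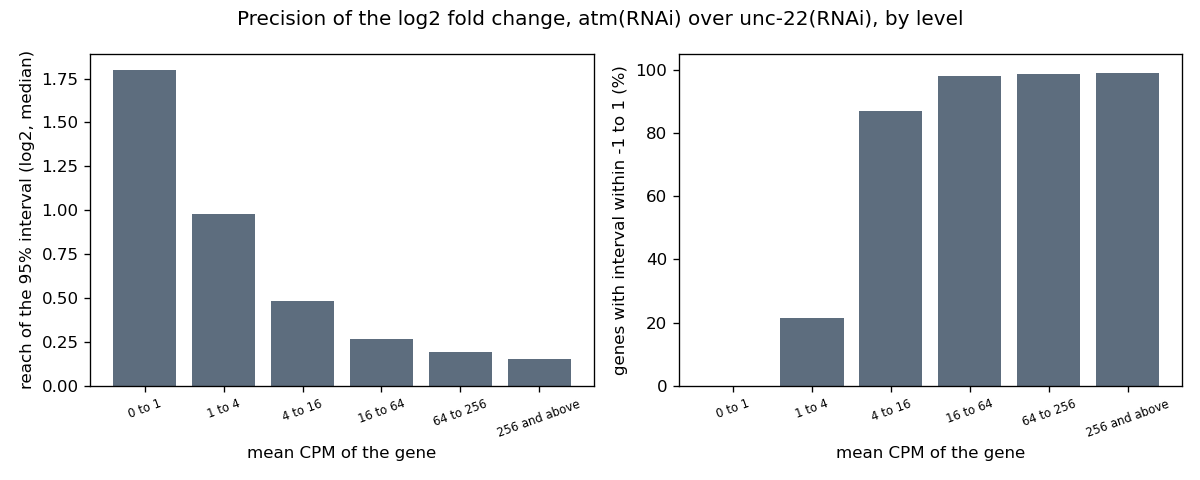
Tested genes grouped by mean CPM over the 8 libraries (x axis). Bars show on the left how far the 95% interval of the log2 fold change reached to either side (median), from 1.8 under 1 CPM to 0.154 in the highest class, and on the right the percentage of genes whose interval lies between -1 and 1, from 0% to 98.9%.

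The 100 genes with the highest mean level took 35.2% ± 2.42 of the reads in atm(RNAi) and 35.8% ± 1.10 in unc-22(RNAi) (SD, n = 4 each). Their log2 fold changes ran from -0.19 to 0.09 with a median of -0.09, none was called, and all 100 intervals lay within 2-fold. The sign leaned one way: 92 of the 100 had a value below 0, where the median of all tested genes was -0.001. The lean was 92 of 100 with relative log expression factors, 90 of 100 with upper quartile factors and 80 of 100 without scaling factors. An unadjusted p under 0.05 was reached by 10 of the 100, beside 3.89% of all tested genes (edgeR quasi-likelihood). The values were small in size, but not all of them were small beside the spread between libraries. The cause of the lean was not tested. The share was weighed on by 1 library, atm(RNAi) replicate 2, with 38.8% of reads. That was above the range of 34.3% to 36.7% that the 4 unc-22(RNAi) libraries gave.

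At 16 CPM and above, 14 of 5774 genes differed at least 2-fold, 13 of them lower in atm(RNAi). Apart from dd_Smed_v6_14586_0_1 none of the 14 had groups without overlap. For 9 of the 14 the highest of the 8 values was in unc-22(RNAi) replicate 3, where the top gene stood at 5080 CPM and the ratio to the next library reached 64.6. In that library 7 genes were at 16 CPM or more and at least 4-fold above each of the other 7 libraries, and they took 0.893% of its reads. By the same rule unc-22(RNAi) replicate 1 had 4 such genes, up to 44.7 CPM. In atm(RNAi) replicate 2 there was 1, at 24.4 CPM, and the remaining libraries had 0. With unc-22(RNAi) replicate 3 left out, 10 genes at this level differed at least 2-fold and 6 of them were higher in atm(RNAi), so the lean to lower values did not hold without it. The count was 26 without unc-22(RNAi) replicate 1 or 4 and 25 without atm(RNAi) replicate 2.

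Genes with few reads were detected most often in 2 of the 4 atm(RNAi) libraries. Of 26833 genes in the deposited table, 25417 had a read in at least 1 of the 8 libraries and 14157 had one in all 8. The number of genes with a read was 19123, 18305, 22568 and 22376 in atm(RNAi) replicates 1 to 4, against 19817, 18190, 17271 and 20610 in unc-22(RNAi) replicates 1 to 4. atm(RNAi) replicates 3 and 4, both of lane 7, were above all 4 controls, while replicates 1 and 2 lay within the control range; the means did not differ beyond the spread (exact two-sided permutation p = 0.257, adjusted 0.386). In lane 8 the difference of the means was -290 genes, against 3532 genes in lane 7. Of the 26833 genes, 2151 had reads in atm(RNAi) alone and 743 in unc-22(RNAi) alone over the 8 libraries. Within lane 7 such genes numbered 3237 and 622, and within lane 8 1750 and 2083, in the same order. Genes with reads in at least 3 atm(RNAi) libraries and none in unc-22(RNAi) numbered 268 of the 26833, with a median of 13 reads in all and at most 52. Those with the converse pattern numbered 22. In irradiated cells 218 of the 268 had a read in atm(RNAi) and 185 had one in unc-22(RNAi), so most were not confined to atm(RNAi) over both states. Irradiated cells are another state, so these reads cannot tell whether the genes were absent in the unirradiated controls. The gap also moved with mapping: in lane 7 the unmapped share of atm(RNAi) minus that of unc-22(RNAi) was -14.1 percentage points, and in lane 8 it was -1.19 points. The part of mapping in this gap was not tested.

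The same RNAi pair after irradiation gave a measure in 8 libraries that share none with the unirradiated comparison. Those groups differed in mapping and depth: unmapped reads made up 50.5% to 70.9% in irradiated unc-22(RNAi) and 36.9% to 43.7% in irradiated atm(RNAi). Reads assigned to genes numbered 6.99 M to 15.1 M and 13.9 M to 21.8 M in the same order. The part of mapping and depth in the irradiated differences was not tested. Over 14054 genes tested in both states, the median size of the knockdown difference was 0.498 in log2 in irradiated cells and 0.148 in unirradiated cells, with median standard errors of 0.374 and 0.214 in the same order. In irradiated cells 3478 of 15486 genes, or 22.5%, had an unadjusted p under 0.05, and 0 were called after adjustment (edgeR quasi-likelihood on the 8 irradiated libraries). The smallest adjusted p of that quasi-likelihood test was 0.0634. With all 16 libraries in 1 fit, 2029 genes were called higher and 594 lower in irradiated atm(RNAi), among those tested without irradiation. Of the 3478 genes, 517 (3.34% of the 15486 tested) were at least 2-fold higher in irradiated atm(RNAi), and 1165 (7.52%) were at least 2-fold lower.

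Without irradiation the medians of both lists lay close to 0, and the lists differed in how widely their genes spread. The lists were set beside all genes and not beside genes of like level. Over all tested genes the median size of the log2 fold change was 0.47 under 1 CPM and 0.0873 at 16 CPM and above. The part of level in the values of the lists was not tested. The 517 genes higher in irradiated atm(RNAi), with a median log2 fold change of 1.34 there, had a median of -0.05 in unirradiated cells, beside -0.003 for all 14054 genes. In unirradiated cells 36.6% of them were above 0, against 49.4% of all genes, and 16 of them, or 3.09%, had an unadjusted p under 0.05, beside a background of 4.03%. Of those 16 genes 15 were lower in unirradiated atm(RNAi), where all genes gave 280 higher and 287 lower. Their intervals lay within 2-fold in unirradiated cells for 466 of 517, or 90.1%, beside 66% of all 14054 genes. Within lanes their unirradiated median was -0.102 in lane 7 and -0.009 in lane 8. Of the 1165 lower genes 1030 were tested in unirradiated cells, where their median was 0.011 and 44 of them, or 4.27%, had an unadjusted p under 0.05, of which 28 were higher and 16 lower in atm(RNAi). Their values went both ways, from -0.90 at the 5th percentile to 0.84 at the 95th, against -0.51 and 0.69 for all genes. Their intervals lay within 2-fold for 368 of 1030, or 35.7%, so for most of them a 2-fold difference in unirradiated cells could not be told.

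**Figure D4:**
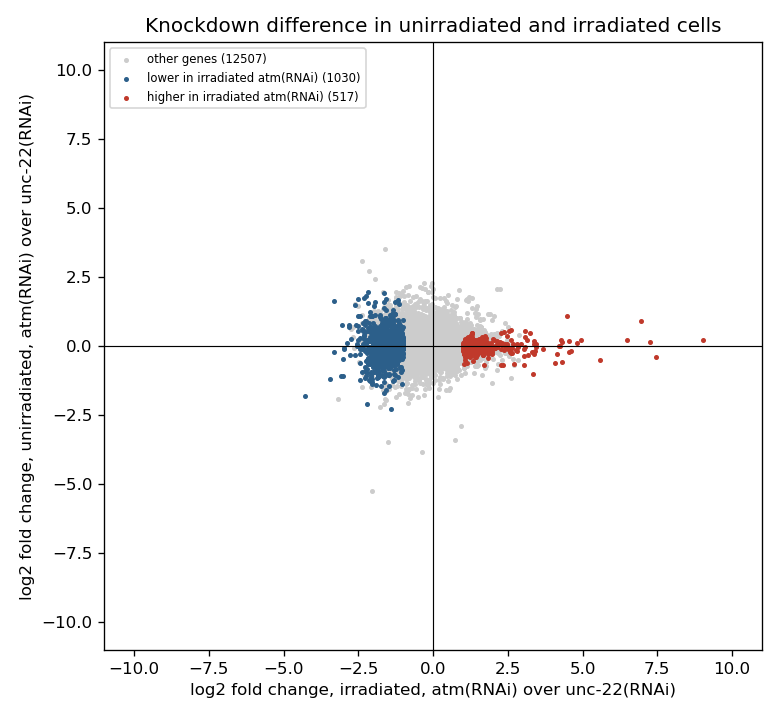
Log2 fold change of atm(RNAi) over unc-22(RNAi) for 14054 genes, in irradiated cells on the x axis and in unirradiated cells on the y axis. The 517 genes higher (red) and 1030 genes lower (blue) in irradiated atm(RNAi), chosen on the x axis alone, spread along it while their unirradiated values centre near 0 with medians of -0.05 and 0.011.

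Read the other way, the genes with the smallest p in unirradiated cells did not keep their direction after irradiation. Of the 567 genes at an unadjusted p under 0.05 without irradiation, 169 or 29.8% had the same sign in irradiated cells, beside 6093 of all 14054 genes or 43.4%. The 287 of them that were lower in unirradiated atm(RNAi) had a median irradiated log2 fold change of 0.32, and the 280 that were higher had one of -0.31. Lower at an unadjusted p under 0.05 in both states were 22 genes, which is 7.67% of those 287 and 1.36% of the 1619 lower in irradiated cells. Of all 14054 genes, 1619 were lower and 1724 higher in irradiated atm(RNAi) at that p. Higher in both states were 9 genes. Lower without irradiation and higher with it were 66 genes, and 54 went the converse way. None of the 22 passed the adjusted threshold in the fit of the 8 libraries of either state (edgeR quasi-likelihood).

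The 4 named genes also changed sign. Scaled over all 16 libraries, dd_Smed_v6_14586_0_1 had 68.8, 47, 55.8 and 89 CPM in irradiated atm(RNAi), against 61.9, 29.7, 44.5 and 38.9 CPM in irradiated unc-22(RNAi). On that scale the unirradiated groups averaged 47.5 ± 9.12 CPM in atm(RNAi) and 113 ± 20.4 CPM in unc-22(RNAi) (SD, n = 4 each). The unirradiated control thus stood highest, and the level in unirradiated atm(RNAi) lay inside the range of the irradiated libraries. The log2 fold change in irradiated cells was 0.50 ± 0.26 (SE; 95% interval -0.09 to 1.09; edgeR quasi-likelihood adjusted p = 0.283). For dd_Smed_v6_7014_0_1 it was 0.87 ± 0.35 (SE), with 15.5 ± 3.34 CPM in irradiated atm(RNAi) and 8.05 ± 3.70 CPM in irradiated unc-22(RNAi) (SD, n = 4 each). For dd_Smed_v6_6060_0_1 it was -0.38 ± 0.16 (SE), with 48.6 ± 5.75 CPM in irradiated atm(RNAi) and 59.6 ± 6.67 CPM in irradiated unc-22(RNAi) (SD, n = 4 each). For dd_Smed_v6_12331_0_1 it was -1.63 ± 0.83 (SE), and a single irradiated unc-22(RNAi) library at 9.19 CPM lay far above the other 3. None of the 4 was called in the fit of the 8 irradiated libraries. The difference between the states was 1.83 ± 0.32 in log2 (SE) for dd_Smed_v6_14586_0_1, and a quasi-likelihood fit of all 16 libraries in edgeR gave it an adjusted p of 0.00735; in that fit 638 of 17843 genes, or 3.58%, were called. It holds the unirradiated libraries by which the gene was chosen, so it adds to the separate irradiated value only the test of the difference.

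**Figure D5:**
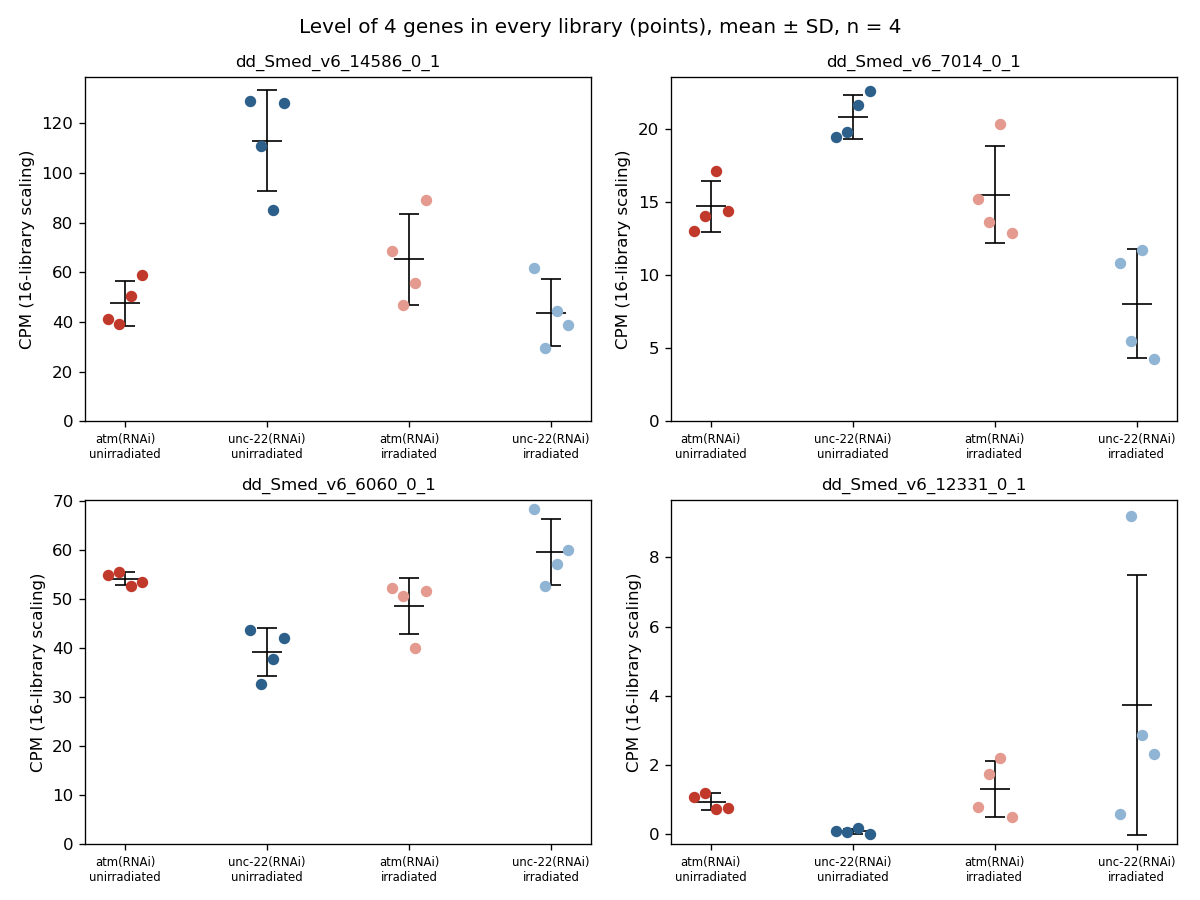
CPM of the 4 named genes in each of 16 libraries (points) with the group mean and SD (bars, n = 4), all scaled over 16 libraries. In unirradiated cells the groups do not overlap, by the choice of the genes, and dd_Smed_v6_14586_0_1 is highest in unirradiated unc-22(RNAi), with a mean of 113 CPM.

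Reads on the strand opposite to the transcripts were counted apart in the same libraries, with 0.269 M to 0.585 M reads each. Whether they are independent of the same-strand reads was not tested. They made up 1.53% ± 0.122 of the reads in genes in atm(RNAi) and 1.82% ± 0.394 in unc-22(RNAi) (SD, n = 4 each; exact two-sided permutation p = 0.257, adjusted 0.386). Of 3835 genes with enough such reads, 0 were called between the groups and 252, or 6.57%, had an unadjusted p under 0.05 (edgeR quasi-likelihood, scaled by the same-strand library sizes). Of the 252 genes 242 were lower in atm(RNAi), beside the lower total share. The lean came with that scaling: with the total of opposite-strand reads as the library size, 137 genes reached an unadjusted p under 0.05, of which 76 were higher and 61 lower in atm(RNAi). The 252 became 779 without unc-22(RNAi) replicate 1, 112 without its replicate 3 and 161 without its replicate 4. They became 136 without atm(RNAi) replicate 1 and 124 without its replicate 4. The interval reached a median of 1.13 in log2 to either side, so a 2-fold difference in opposite-strand reads was not detectable for most genes at this depth.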

How the data were processed

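RNA-seq of sorted X1 cells was deposited as raw read counts, 1 table of all libraries and 1 file per library. Reads were processed with Trim Galore 0.6.5 and STAR 2.7.9, per the submitters' processing notes; settings are not given in the sources used here. Of 429328 values in the table, 0 differed from the same-strand counts of the deposited per-library files summed over the transcripts that share the first numbers of an identifier. Since multimapped reads were not counted, values of genes that have near-identical copies are uncertain.

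Counts were tested with the edgeR 4.0.16 quasi-likelihood test (R 4.3.3; TMM factors; filterByExpr, which removed 11864 genes; Benjamini-Hochberg adjustment, threshold 0.05). DESeq2 1.42.0 and limma-voom (limma 3.58.1) were alternatives, with other scalings and filters, lane, and each library left out. The code was tested on simulated counts. Library measures had exact permutation tests over 70 splits, where the smallest possible two-sided p is 0.0286. Over 12 pairs of replicates the chi-square per degree of freedom was at least 9.18, so every pair of replicates differed by more than sampling noise.

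The comparison and the lists were chosen with earlier results of these data known. The named genes are the 2 of smallest p in each direction without overlap between the groups. Lists of DNA damage, cell cycle and cell death genes and of cell type markers, written by symbol, could not be matched to the identifiers and were not analysed here.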

Additional observations from a re-analysis of the deposited data

Results flagged for a closer look

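For 4 genes the difference between atm(RNAi) and unc-22(RNAi) was itself different in irradiated and unirradiated cells, in an edgeR quasi-likelihood fit of all 16 libraries with the interaction of RNAi target and irradiation. The genes were chosen on the unirradiated libraries, which are in this fit too, so their interaction is no independent evidence. The interaction, irradiated minus unirradiated log2 fold change, was 1.83 for dd_Smed_v6_14586_0_1 (edgeR quasi-likelihood adjusted p = 0.00735). It was called in all 16 fits that left out 1 library, with values from 1.69 to 2.09 and adjusted p values between 0.00163 and 0.0229.

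The other 3 genes lost their call in most fits with 1 library left out, while the interaction kept its direction. It was 1.46 for dd_Smed_v6_7014_0_1 (edgeR adjusted p = 0.0411) and was called in 3 of the 16 fits with 1 library left out, with values from 1.25 to 1.71 and adjusted p values from 0.0158 to 0.0959. It was -0.76 for dd_Smed_v6_6060_0_1 (edgeR adjusted p = 0.0343), called in 5 of 16 fits, with values from -0.81 to -0.64 and adjusted p values from 0.0196 to 0.0932. It was -5 for dd_Smed_v6_12331_0_1 (edgeR adjusted p = 0.0305), called in 6 of 16 fits, with values from -5.59 to -4.03 and adjusted p values from 0.0092 to 0.0718. A Dixon test of 20 groups of 4 values passed its critical value in 0 of them; with 4 values it can miss a library that stands apart.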

How the results depend on the processing

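The single call was lost (0 genes) with upper quartile factors, with all 16 libraries in 1 fit, with lane as a covariate and in lane 7 alone. It became 2 genes with no low-count filter and 2 in lane 8 alone, and 0 to 1 with a library left out. The count at an unadjusted p under 0.05 was 1229 with no low-count filter, 278 with all 16 libraries, 381 in lane 8 alone, and 331 to 914 with a library left out. The count of genes whose interval lay within 2-fold ran from 7351 to 9392 over 21 alternatives. Genes without overlap numbered 302 under a stricter filter, which tests fewer genes, and 758 to 1309 with a library left out, where fewer libraries have to be apart. Except where a cause is given, it was not tested.

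The replicate number gave no clear pairing of the unirradiated libraries: the correlations of the deviations of same-numbered libraries were 0.13, 0.08, -0.02 and 0.08. Of the 4 numbers 2 matched best with their own. In the irradiated libraries the same correlations were 0.51, 0.38, 0.04 and -0.11 for replicates 1 to 4. With the replicate block 0 genes were called between the unirradiated groups, and 657 had an unadjusted p under 0.05. Of these 416 were higher and 241 lower in atm(RNAi), against 293 and 290 without the block.

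Differences of library measures, atm(RNAi) minus unc-22(RNAi), changed sign in places. The share of the 10 most abundant genes differed by 0.0864 percentage points over the 8 libraries, by -1.92 in lane 7 and by 2.09 in lane 8. That of the 100 most abundant genes differed by -0.725 points over the 8 libraries. In lane 8 the opposite-strand share differed by 0.000896 points and the genes detected by -290. With a library left out the gene total ran from -1.94 to 1.11 M, the share of the 10 most abundant genes from -1.15 to 0.723 points and the opposite-strand share from -0.463 to -0.186 points. The median of the genes higher in irradiated atm(RNAi) was -0.102 in lane 7 and -0.009 in lane 8, and that of the lower genes ran from -0.068 to 0.109 with a library left out. Opposite-strand calls became 8 with no low-count filter. Genes at 16 CPM or more and at least 2-fold different numbered 10 to 26 with a library left out, an alternative chosen after seeing the data. Depth limits what can be said below 4 CPM.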
